A study of Mus musculus with 8 samples.

Results

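The HoxB cluster was examined in cells that had migrated out of cultured mouse sacral neural tubes. Members were the genes Hoxb1 to Hoxb9 and Hoxb13, taken from probe sets annotated to a single gene symbol, with the brightest probe set kept for each gene. Of the 10 listed genes, 9 were measured, each by 1 probe set, among 6855 genes tested in all. Hoxb8 was not measured by this rule, because its probe set carried the symbols of both Hoxb8 and Hoxb7. The 9 genes measured lie on chromosome 11.

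Expression was read on 8 Affymetrix Mouse Gene 1.0 ST arrays. Of these, 4 came from homozygous Sox10 Dom mutant embryos (Dom/Dom) and 4 from wild-type embryos (WT), each group numbered as replicates 1 to 4. Per the labels' protocols, the sacral neural tube caudal to somite 24 was dissected at embryonic day 9.5 and grown for 24 hours with 10% serum, the explant was removed, and the cells that had migrated out were lysed. The cells analysed are therefore an outgrowth and not a sorted population, and no label says which cells or litters stand behind a replicate. Dom is a frameshift allele of Sox10, which encodes a transcription factor needed by neural crest cells. Sox10 itself stood at 10.50 ± 0.40 log2 units in Dom/Dom and 11.69 ± 0.18 in WT (SD, n = 4 each; limma adjusted p = 0.0168), and since the mutant transcript is still made, this does not check the genotype labels. Array medians lay between 8.60 and 8.78 log2 units, and the number of arrays limits the precision.

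Hox genes encode homeodomain transcription factors that give cells their position along the head-to-tail axis. Within a cluster, genes at the 3′ end, with low paralogue numbers, are switched on earlier and reach further towards the head than genes at the 5′ end. Neural crest cells keep much of the Hox code of the neural tube level from which they leave. Their proteins bind DNA with partners of the Pbx and Meis families, and their transcription responds to retinoic acid, Wnt and FGF signals and is held in place by Polycomb and trithorax proteins.

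No HoxB gene passed the test between the genotypes. In the limma comparison 0 of 9 reached an adjusted p under 0.05, where 0.481% of all tested genes did (33 of 6855, with 0.0729% higher and 0.408% lower in Dom/Dom), and 0 of 9 had an unadjusted p under 0.05, where 6.11% of all genes did. Levels of the genotypes overlapped for 9 of 9 genes. Over all genes 3.78% were free of such overlap, 1.18% with Dom/Dom higher and 2.60% with Dom/Dom lower. The 9 differences, Dom/Dom minus WT, ran from -0.18 to 0.12 log2 units, with 4 above 0 and 5 below and a median of -0.022, against a median of -0.001 over all genes. By contrast, the levels of 7 of the 9 genes separated replicates 1 and 2 from replicates 3 and 4 in both genotypes, as described further on. Of all tested genes, 14.0% were higher in replicates 1 and 2 in this way.

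**Figure D1:**
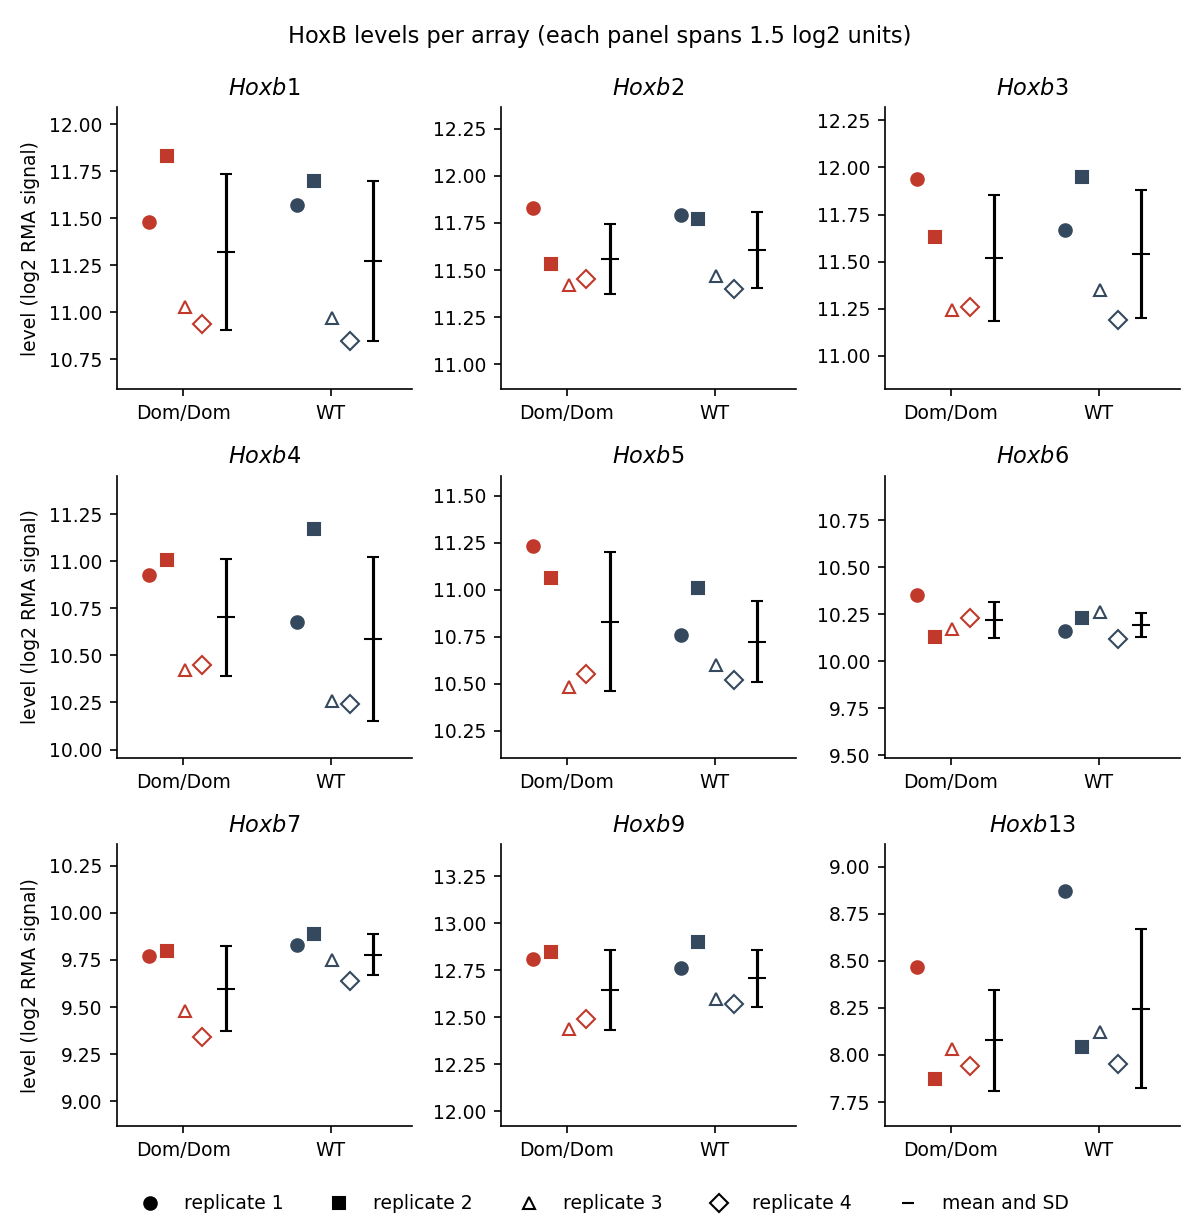
Level of each HoxB gene on each of the 8 arrays, in log2 units of RMA signal, with Dom/Dom on the left and WT on the right of each panel. Filled symbols are replicates 1 and 2, open symbols replicates 3 and 4, and bars give the mean and SD of 4 arrays. The genotypes overlap in 9 of 9 panels, and in 7 panels the 4 filled symbols lie above the 4 open ones. Of all tested genes, 3.78% had no overlap of the genotypes, and 14.0% were higher on all 4 arrays of replicates 1 and 2.

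Levels are given below in the order of paralogue number. A probe set's brightness depends on its own probes as well as on the RNA, so levels of different genes are not ranked against each other. As a measure of the signal of genes that these cells are not known to use, 213 olfactory receptor genes had mean levels with a median of 6.54, a 95th percentile of 8.22 and a highest value of 9.68. Of the 9 HoxB genes, 7 lay above that highest value on all 8 arrays; the others were Hoxb7 and Hoxb13.

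Hoxb1, which in the mouse hindbrain specifies the segment that gives rise to facial motor neurons, had levels of 11.48, 11.83, 11.03 and 10.94 in Dom/Dom replicates 1 to 4, against 11.57, 11.70, 10.97 and 10.85 in WT. In each genotype the arrays of replicates 1 and 2 were the high ones, and the genotypes overlapped over nearly their whole range. The means were 11.32 ± 0.42 in Dom/Dom and 11.27 ± 0.42 in WT (SD, n = 4 each), a difference of 0.05 with a 95% interval from -0.47 to 0.57. Hoxb2, which acts in the same hindbrain segment, read 11.83, 11.53, 11.42 and 11.45 in Dom/Dom, against 11.79, 11.77, 11.47 and 11.40 in WT. Its difference was -0.05 (95% interval -0.32 to 0.23), and both groups again had their lower values in replicates 3 and 4.

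Hoxb3, which with its paralogues patterns the hindbrain and the pharyngeal organs, stood at 11.94, 11.63, 11.24 and 11.26 in Dom/Dom, against 11.67, 11.95, 11.35 and 11.19 in WT. The genotypes spanned almost the same range, and the difference was -0.02 (95% interval -0.45 to 0.40). Hoxb4, a gene of the posterior hindbrain that is also known for expanding blood stem cells, read 10.93, 11.01, 10.42 and 10.45 in Dom/Dom, against 10.68, 11.17, 10.26 and 10.24 in WT. The Dom/Dom arrays were higher in 3 of 4 pairs of same-numbered replicates, by less than the gap between replicate numbers, and the difference was 0.12 (95% interval -0.36 to 0.59).

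The sequences around the start sites of Hoxb1 and Hoxb4 are shown because these were the only measured members in the RefSeq promoter collection used (GRCm38.p6). They were also the 2 members with the widest gaps between replicate numbers. Each sequence runs from 250 bases before to 50 bases after the start site, on the plus strand, at chr11:96365508-96365807 for Hoxb1 and chr11:96318017-96318316 for Hoxb4. Capitals mark matches, on either strand, to 5 motifs: TGATNNAT (Pbx with Hox), TGACAG (Meis), TTTATG (caudal and posterior Hox proteins), AGGTCA (a half-site of retinoid receptors) and CCAAT.
Hoxb1: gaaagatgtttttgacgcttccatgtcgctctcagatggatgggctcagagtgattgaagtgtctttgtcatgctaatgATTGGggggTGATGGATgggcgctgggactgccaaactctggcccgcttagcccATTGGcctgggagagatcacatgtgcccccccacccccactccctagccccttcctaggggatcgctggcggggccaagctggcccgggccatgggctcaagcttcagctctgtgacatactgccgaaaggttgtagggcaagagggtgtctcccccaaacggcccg
Hoxb4: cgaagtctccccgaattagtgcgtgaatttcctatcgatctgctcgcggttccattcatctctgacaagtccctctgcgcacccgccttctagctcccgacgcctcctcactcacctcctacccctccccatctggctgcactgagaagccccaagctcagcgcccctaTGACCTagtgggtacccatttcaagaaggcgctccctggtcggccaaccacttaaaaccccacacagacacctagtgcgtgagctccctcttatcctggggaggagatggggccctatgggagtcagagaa
The Hoxb1 window held 1 match to the Pbx and Hox motif, starting 162 bases before the start site, and 2 to CCAAT on the minus strand. The Hoxb4 window held 1 retinoid half-site, on the minus strand 81 bases before the start site. Among 32851 windows of the same length, 8.85% held the Pbx and Hox motif, 37.4% CCAAT, 16.3% the half-site, 19.2% the Meis motif and 11.9% TTTATG. No match overlapped another in these windows, and a match is a description of letters, not a site in use.

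Hoxb5, a gene of the neural crest that colonises the gut, where it is known to act on Ret, had levels of 11.23, 11.06, 10.48 and 10.55 in Dom/Dom, against 10.76, 11.01, 10.60 and 10.52 in WT. Its Dom/Dom arrays were both the highest and the lowest of the 8, and the difference was 0.11 (95% interval -0.28 to 0.50). Replicate 1 alone gave a difference of 0.47, and the other pairs lay between -0.12 and 0.05. Hoxb6, expressed in posterior mesoderm and spinal cord of the embryo, was the steadiest member, with 10.35, 10.13, 10.17 and 10.23 in Dom/Dom, against 10.16, 10.23, 10.26 and 10.12 in WT. All 8 arrays fell within 0.23 log2 units, and the genotypes differed by 0.03 (95% interval -0.14 to 0.20).

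Hoxb7, active in spinal cord and in the ureteric bud of the kidney, read 9.77, 9.80, 9.48 and 9.34 in Dom/Dom, against 9.83, 9.89, 9.75 and 9.64 in WT. It was lower in Dom/Dom in 4 of 4 pairs, by -0.07, -0.10, -0.27 and -0.29, although the groups overlapped. Its means were 9.60 ± 0.22 in Dom/Dom and 9.78 ± 0.11 in WT (SD, n = 4 each), a difference of -0.18 (95% interval -0.43 to 0.07; limma adjusted p = 0.9996). Hoxb9, which patterns the thoracic skeleton and motor neurons, stood at 12.81, 12.85, 12.44 and 12.49 in Dom/Dom, against 12.76, 12.90, 12.60 and 12.57 in WT, a difference of -0.06 (95% interval -0.33 to 0.20). Its lower values were again those of replicates 3 and 4, with Dom/Dom slightly below WT there.

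Hoxb13, the most 5′ gene of the cluster, which restrains growth of the tail and the caudal spinal cord, had levels of 8.47, 7.87, 8.03 and 7.94 in Dom/Dom, against 8.87, 8.04, 8.12 and 7.95 in WT. Replicate 1 of each genotype was the highest of its group. It was lower in Dom/Dom in 4 of 4 pairs, by -0.40, -0.17, -0.09 and -0.01, and the difference was -0.17 (95% interval -0.61 to 0.27). Of these values, those of replicates 2 to 4 lie under the 95th percentile of the olfactory receptor means, so whether Hoxb13 was expressed could not be read from its signal. Of the 9 genes, 2 had the same sign in 4 of 4 pairs, Hoxb7 and Hoxb13, both lower, and 0 were higher in all 4. Over all genes 10.7% were lower and 10.4% higher in 4 of 4 pairs.

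The probe set with the symbols Hoxb8 and Hoxb7 (10380629) read 10.73, 10.72, 10.36 and 10.41 in Dom/Dom, against 10.45, 11.08, 10.87 and 10.74 in WT. It was higher in Dom/Dom in pair 1 and lower in the other pairs, and the groups overlapped. In a fit over all 16381 probe sets it differed by -0.23 (95% interval -0.58 to 0.12; limma adjusted p = 0.9999). Which of the 2 genes gave the signal cannot be told from the annotation.

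Same-numbered arrays of the genotypes varied together, and fitting the number as a block gave smaller errors for 9 of 9 genes. Errors also fell in general: the median standard error over all genes was 0.059 with the block and 0.102 without it. For the 9 HoxB genes these medians were 0.065 and 0.176. Standard errors lay between 0.052 and 0.096 log2 units with the block, against 0.078 to 0.235 without it; that of Hoxb1 was 4.26 times smaller. With the block 0 of 9 genes passed, where 1.50% of all genes did (103 of 6855, with 0.452% higher and 1.05% lower), and the lowest adjusted p of a member was that of Hoxb7 (limma adjusted p = 0.237). At an unadjusted p under 0.05 the blocked fit picked 1 of 9, Hoxb7 (interval -0.32 to -0.04), where 13.9% of all genes did. Each gene's own 95% interval reached at most 1.26-fold in either direction with the block and 1.53-fold without it. These are 9 separate intervals, and the pairing behind the block was taken from these data. The signal of Hoxb13 could not be told from background.

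**Figure D2:**
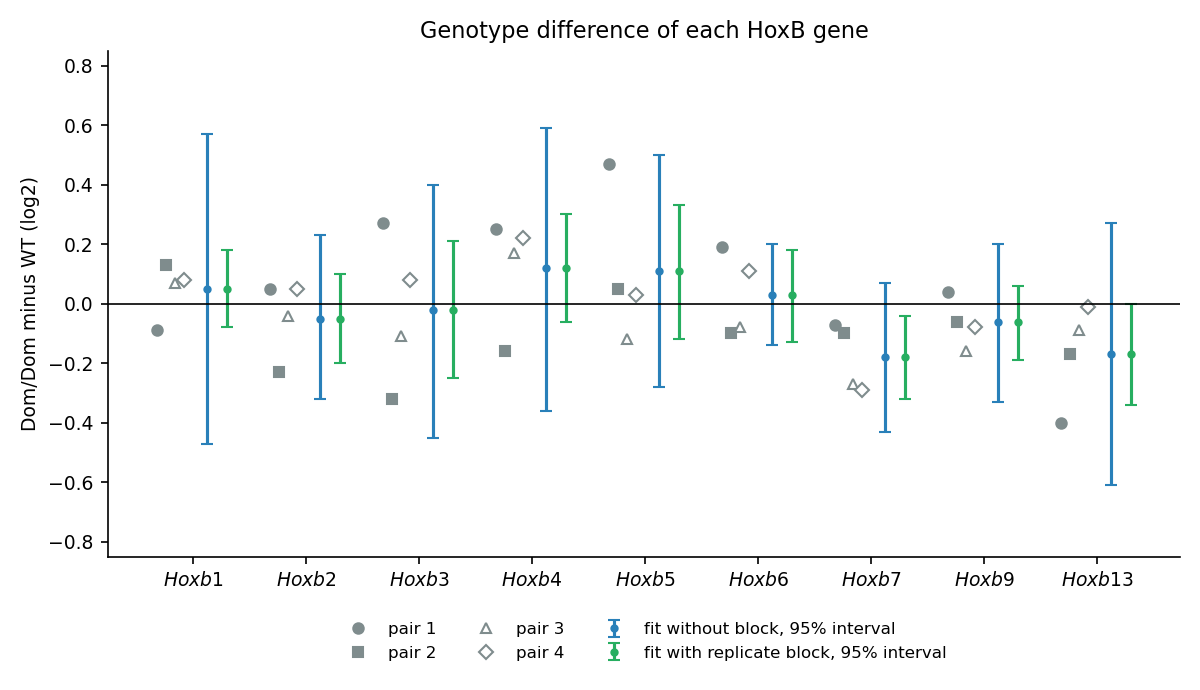
Dom/Dom minus WT on the log2 scale for each HoxB gene in order of paralogue number. Grey symbols are the 4 pairs of same-numbered arrays, and coloured points with bars are the fitted difference and its 95% interval without a block and with the replicate block. Pair differences run from -0.40 to 0.47, and the blocked intervals are the narrower ones for 9 of 9 genes. Over all genes the median standard error was also smaller with the block (0.059 against 0.102).

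Along the cluster, genes of paralogue groups 1 to 5 had a median difference of 0.048, with 3 of 5 above 0, and those of groups 6 to 13 had a median of -0.116, with 1 of 4 above 0. Pair by pair, the median of the 9 genes was 0.045, -0.102, -0.090 and 0.046 for replicates 1 to 4, with 6, 2, 2 and 6 genes above 0. The sign changed between pairs for 7 of 9 members, all but Hoxb7 and Hoxb13.

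The larger variation in HoxB levels ran with the replicate numbers. Hoxb1, Hoxb2, Hoxb3, Hoxb4, Hoxb5, Hoxb7 and Hoxb9 were higher on all 4 arrays of replicates 1 and 2 than on all 4 arrays of replicates 3 and 4. These are 7 of the 9 members, and 14.0% of all tested genes had that pattern. Within each genotype taken alone the same 7 genes were higher in replicates 1 and 2, as were 17.8% of all genes. No label says what separates these replicates, the split was known from earlier results of these data, and it is described here without a test. The mean over the 9 genes was 10.98, 10.86, 10.53 and 10.52 log2 units in Dom/Dom replicates 1 to 4, and 10.90, 10.96, 10.60 and 10.50 in WT.

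Hoxb1 had the widest gap, with 11.48 to 11.83 in replicates 1 and 2 against 10.85 to 11.03 in replicates 3 and 4. The difference of the means was 0.70 log2 units (1.62-fold), 0.67 within Dom/Dom and 0.73 within WT. A difference at least as high was found for 0.394% of all genes. Hoxb4 followed with 0.60 (0.53 within Dom/Dom and 0.68 within WT), Hoxb3 with 0.54 (0.53 and 0.54) and Hoxb5 with 0.48 (0.63 and 0.33). Hoxb9, Hoxb2 and Hoxb7 had gaps of 0.31, 0.30 and 0.27. Hoxb13 differed by 0.30 with overlapping sets, as replicate 2 was not raised, and Hoxb6 by 0.02. Over all genes the median of this difference was 0.038, and 12.3% of genes were higher in replicates 1 and 2 by at least 0.25, as were 8 of the 9 HoxB genes. The median was 0.538 for the genes of paralogue groups 1 to 5 and 0.286 for groups 6 to 13. For 8 of 9 genes the gap exceeded the genotype difference in size. The share of all genes for which this held was not counted, so this count is not read as a trait of HoxB genes.

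**Figure D3:**
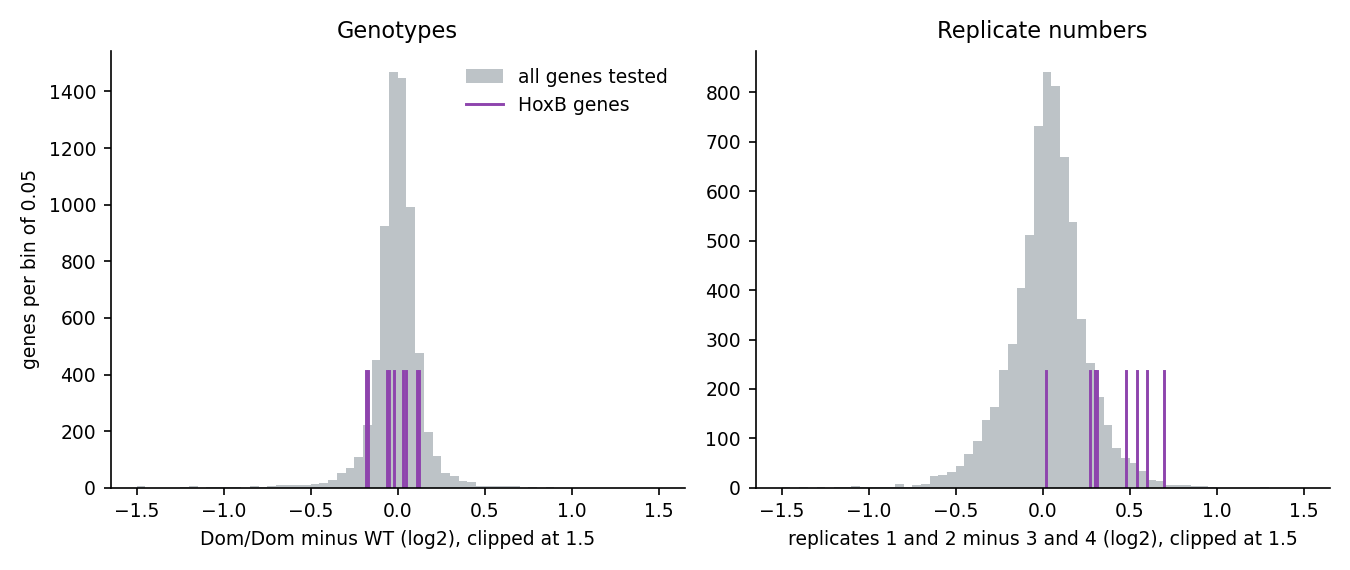
Histograms of all 6855 genes tested (grey) by their genotype difference (left) and by the difference between replicates 1 and 2 and replicates 3 and 4 (right), on the log2 scale, clipped at 1.5; purple lines mark the 9 HoxB genes. The genotype differences of HoxB genes lie between -0.18 and 0.12, near the centre, and their replicate differences between 0.02 (Hoxb6, near the centre) and 0.70, with the other 8 at 0.27 or above.

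MicroRNA genes lie between the Hox genes of the cluster. In the RefSeq order (GRCm38.p6) Mir10a lies next to Hoxb4, within the span annotated to Hoxb3, and Mir196a-1 lies between Hoxb9 and Hoxb13. The microRNAs are shown because each is made from inside the cluster and both families are known to act on Hox transcripts; capitals mark the seed, bases 2 to 8, and sequences are RefSeq's (GRCm38.p6).
mmu-miR-10a-5p: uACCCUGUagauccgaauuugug
mmu-miR-196a-5p: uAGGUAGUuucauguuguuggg
The mature miR-196a-5p has the same letters whether made from Mir196a-1 on chromosome 11 or from Mir196a-2 in the HoxC cluster on chromosome 15, and its seed differs from that of miR-10a-5p. The arrays read total RNA with probe sets for the loci, and which form of the RNA gave the signal is not given in the sources used here.

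Mir10a read 7.11, 6.70, 7.95 and 8.05 in Dom/Dom, against 6.59, 7.01, 7.48 and 7.70 in WT. It was lower on all 4 arrays of replicates 1 and 2 than on all 4 of replicates 3 and 4, by -0.94 log2 units, a pattern of 8.05% of all genes and opposite in sign to that of the 7 Hox genes around it. Its genotype difference was 0.26 (95% interval -0.45 to 0.96; limma adjusted p = 0.9996), and its levels lie within the range of the olfactory receptor means. Mir196a-1 read 8.47, 8.49, 8.92 and 8.92 in Dom/Dom, against 8.46, 8.82, 8.67 and 8.75 in WT, with overlapping groups in both comparisons. Its gap between replicate numbers was -0.25, with -0.44 within Dom/Dom and -0.07 within WT. Over all genes 14.0% were higher on all 4 arrays of replicates 1 and 2, and 8.05% lower. Of the 11 other flanking genes measured, Snx11, Nfe2l1 and Snf8 were higher on all 4, by 0.26, 0.22 and 0.12, and Ube2z was lower on all 4, by -0.30. With the microRNA genes, 0 of 13 passed the genotype test with or without the block, and the median difference was 0.006; after Mir10a the largest difference in size was that of Copz2, a coat protein gene (-0.10, limma adjusted p = 0.9996).

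The HoxC cluster, on chromosome 15, holds the paralogues of several HoxB genes. Of 9 measured HoxC genes, 0 passed the genotype test with or without the block, and their median difference was 0.139, with 6 above 0 and 3 below. Between replicate numbers, 5 of 9 were higher on all 4 arrays of replicates 1 and 2, Hoxc4, Hoxc5, Hoxc8, Hoxc12 and Hoxc13, and Hoxc10 was lower on all 4. Over all genes 14.0% were higher and 8.05% lower in this way. The largest HoxC gap was that of Hoxc12 (0.87), with 0.60 for Hoxc8 and -0.16 for Hoxc10. Among paralogues, Hoxb4 and Hoxc4 both were higher in replicates 1 and 2 (0.60 and 0.29), as were Hoxb5 and Hoxc5 (0.48 and 0.29), while Hoxb9 and Hoxc9 had gaps of 0.31 and -0.24. Whether the clusters differ was not tested.

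**Figure D4:**
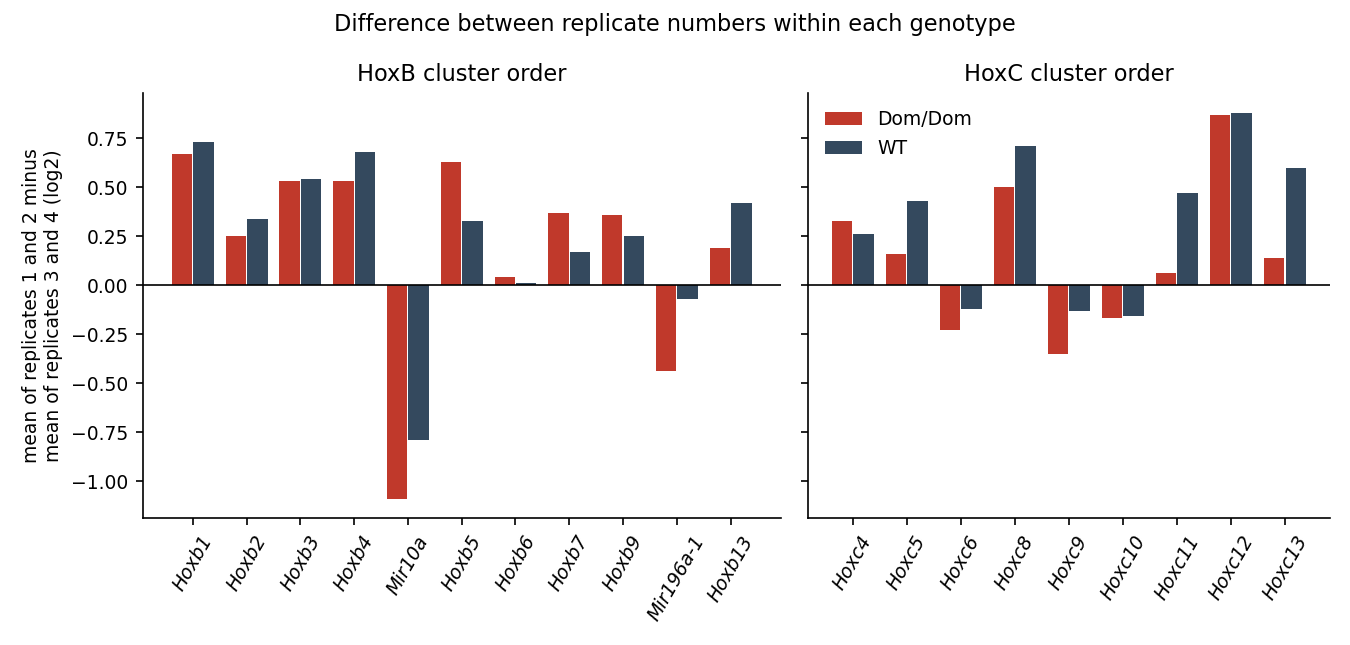
Mean of replicates 1 and 2 minus mean of replicates 3 and 4, on the log2 scale, within Dom/Dom (red) and within WT (dark blue), for HoxB genes and the microRNA genes among them (left) and for HoxC genes (right), from the 3′ to the 5′ end of each cluster. Bars of both genotypes point up for the 9 HoxB genes, though barely for Hoxb6 (0.04 in Dom/Dom and 0.01 in WT). They point down for Mir10a (-1.09 in Dom/Dom and -0.79 in WT) and Mir196a-1 (-0.44 and -0.07).

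Of genes known to act on or with Hox genes, 0 passed without the replicate block and 1 with it, where 0.481% and 1.50% of all genes did. Of the TALE cofactors 1 of 9 listed was measured, Meis1, a DNA-binding partner of Hox proteins, at 12.62 ± 0.07 in Dom/Dom and 12.42 ± 0.19 in WT (SD, n = 4 each), a difference of 0.19 that did not pass (limma adjusted p = 0.9996). Of 21 listed inducers and axial regulators 8 were measured and 0 passed. The retinoid receptor gene Rxrg had levels of 8.82, 8.74, 8.29 and 8.48 in Dom/Dom, against 9.20, 9.18, 10.02 and 10.24 in WT. Its groups did not overlap, yet the difference of -1.08 did not pass (limma adjusted p = 0.105; 0.126 with the replicate block). Lin28b, an RNA-binding protein that delays the move to posterior Hox genes in the mouse, differed by 0.20 (limma adjusted p = 0.9996). Of 24 listed Polycomb and trithorax genes 10 were measured, with a median difference of -0.016. Without the block 0 of them passed, and with it 1 rose, Cbx7, a reader of Polycomb-marked histones.

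Cbx7 read 9.55, 9.82, 9.40 and 9.39 in Dom/Dom, against 9.25, 9.03, 8.96 and 8.79 in WT. Each Dom/Dom array was above each WT array, and the difference was 0.53 (limma adjusted p = 0.126; 0.0369 with the replicate block). Jarid2, a partner of the complex that marks Polycomb targets, differed by -0.27 (limma adjusted p = 0.9996; 0.216 with the block). Between replicate numbers, 14.0% of all genes were higher on all 4 arrays of replicates 1 and 2. Of the 10 Polycomb and trithorax genes 5 had that pattern: Jarid2, Pcgf2, Cbx2, Kmt2d and Kdm6b. Among the regulators the same held for the retinoic acid receptor gene Rara (0.31) and for Gdf11 (0.53), a signal that triggers the trunk-to-tail change of Hox genes in mouse.

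Markers of other tissues are given beside these patterns, as whole lists, since Hox genes are used in neural tube and mesoderm too. In the genotype comparison, 2 of 8 measured neural crest markers fell, Sox10, which is the mutated gene itself, and Erbb3. With the block 3 fell, the third being Tfap2a (-0.50, limma adjusted p = 0.0418 with the block and 0.108 without it), a transcription factor of early crest. Over all genes 0.408% fell without the block, and with it 1.05% fell and 0.452% rose. The mean level of the crest list lay between 10.85 and 11.12 in Dom/Dom and between 11.34 and 11.60 in WT. In such cultures fewer cells of a type and less RNA per cell cannot be told apart. For somite (5 measured), lateral and limb mesoderm (7), tail bud (3), surface ectoderm (5), blood and endothelium (3) and neural tube markers (1, Neurog1), 0 passed without the block, and with it Prrx1 rose (0.44, limma adjusted p = 0.0339) and Krt8 fell (-0.50, limma adjusted p = 0.0164).

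Between replicate numbers, lateral and limb mesoderm markers had mean levels of 8.99 to 9.22 in replicates 1 and 2 and of 9.28 to 9.32 in replicates 3 and 4. Of the 7 markers 4 were lower on all 4 arrays of replicates 1 and 2 and 1 was higher. Over all genes 8.05% were lower and 14.0% higher in this way. Blood and endothelial markers stood at 8.64 to 9.13 and 9.23 to 9.66, with 2 of 3 lower on all 4, and tail bud markers at 10.53 to 10.76 and 10.33 to 10.43, with 1 of 3 higher. The crest list (10.85 to 11.47 and 10.93 to 11.60), the somite list (7.88 to 8.21 and 7.83 to 8.17), the surface ectoderm list (10.06 to 10.55 and 10.19 to 10.58) and Neurog1 (9.76 to 10.25 and 9.61 to 10.38) overlapped between the sets. The olfactory receptor genes had a median gap of 0.101, against 0.038 over all genes. Of the 213, 26 were higher on all 4 arrays of replicates 1 and 2. That is not a larger share than the 14.0% of all genes (960 of 6855). The gap was above 0 for 179 of the 213, and for 4050 of all 6855 genes. A gap above 0 was thus common in genes these cells are not known to use. What this means for the HoxB gap was not tested, nor was the part of the marker lists in the HoxB pattern.

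Outside the Hox lists, the 5 genes whose standardised profile over the 8 arrays lay closest to that of the HoxB mean were Wscd1, Mir205, Tenm2, Tlr11 and Glrx5. Their root mean squared difference from it was 0.133, 0.162, 0.188, 0.196 and 0.199, where 0 would be the same profile and all genes had a median of 1.277. Among the members, each of which is itself part of that mean, this measure ran from 0.210 for Hoxb3 to 1.155 for Hoxb6. Their closeness to it is thus partly built in. Of these 5 genes, Wscd1 and Tenm2 lie on chromosome 11, as the cluster does. The share of all tested genes on that chromosome was not counted, so nothing is read from this.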

How the data were processed

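Per the submitters' processing notes, which name RMA and Partek without versions or settings, the authors normalised the arrays, and the deposited unit is log2 signal of a probe set on an array. RMA compresses differences of dim probe sets, and no detection calls were given. The table used held 16381 probe sets. Those with 1 symbol (7416) were kept, the brightest by mean over 8 arrays for each gene, which left 6855 genes, 6829 of them named through RefSeq. All were fitted together in limma 3.58.1 (R 4.3.3), with lmFit, eBayes and no term besides genotype; tests were two-sided, with Benjamini-Hochberg adjustment over all genes, and differences are Dom/Dom minus WT. Steps were tested on simulated data. Whether the replicates are separate cultures is not stated, and the p-values then cover only how far these samples lie apart.

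The members and lists were chosen with earlier results of these data known. Named were all members, Sox10, the 5 genes of most similar profile and, of the HoxC, flanking, cofactor, regulator and Polycomb lists, genes past the threshold with or without the block and otherwise up to 2 with the largest differences. Marker genes were outside this rule: those past the threshold were named, and they and any other gene were chosen after their values were seen. Deviations from the genotype mean correlated at 0.47, 0.58, 0.61 and 0.67 in same-numbered arrays. As these exceed 0.1, same-numbered arrays were treated as pairs. This comes from the data and not from the labels, and differently numbered arrays within replicates 1 and 2 or within 3 and 4 correlated too, at 0.11 to 0.38. Alternatives were a replicate block, a block for replicates 1 and 2 against 3 and 4, median centring, other probe set rules, a filter on dim genes, array weights, a trended variance, each array left out, and fits within sets of replicates.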

Additional observations from a re-analysis of the deposited data

Results flagged for a closer look

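For the HoxB and HoxC genes, the microRNA genes of both clusters, the probe set shared by Hoxb8 and Hoxb7, and the mean of the HoxB members, the 4 arrays of either genotype were examined for 1 value standing apart from the remaining 3. Of 46 such sets 1 held one, where about 2 are expected by chance. Hoxc9 was low in WT replicate 1, at 11.19, against 11.47 to 11.51 on the other WT arrays. By the rule used, no HoxB gene had such a value in either genotype. Hoxb13 in WT replicate 1, at 8.87 against 8.04, 8.12 and 7.95 on the other WT arrays, was not counted by it.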

How the results depend on the processing

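Over 18 alternatives, 0 HoxB genes passed the threshold in each, and of 162 member values 0 passed; the lowest adjusted p was 0.161, for Hoxb7 within replicates 3 and 4. The difference was positive for Hoxb4 and negative for Hoxb7 in 18 of 18. Several of these could not move it, as the groups are equal in size and each HoxB gene has 1 probe set. They were both blocks, the other probe set rules, the filter on dim genes and the trended variance. Its size varied when arrays were left out. With 1 array left out that of Hoxb4 (0.119) lay between 0.002, without WT replicate 4, and 0.313, without WT replicate 2. That of Hoxb7 (-0.181) lay between -0.247, without Dom/Dom replicate 2, and -0.096, without Dom/Dom replicate 4. The count over all genes, 33, was 103 with the replicate block, 116 with the block of 2 levels, 190 with array weights, 4 over all probe sets, 4 within replicates 1 and 2 and 352 within replicates 3 and 4, both of the last added after seeing the data. It ran from 10 to 51 with 1 array left out: 10 to 12 without an array of replicates 3 or 4, and 51 without WT replicate 2. The replicate block changed no call of a HoxB gene.

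Small differences changed sign, as did that of Hoxb13 (-0.169), which was 0.038 without WT replicate 1. Centring each array on its median gave -0.013 for Hoxb1 and -0.032 for Hoxb6, array weights -0.001 for Hoxb6, and the fit within replicates 3 and 4 gave 0.001 for Hoxb2 and -0.044 for Hoxb5. With 1 array left out the other ranges were -0.123 to 0.191 for Hoxb1, -0.138 to 0.014 for Hoxb2, -0.164 to 0.115 for Hoxb3, -0.025 to 0.222 for Hoxb5, -0.014 to 0.059 for Hoxb6, -0.130 to 0.006 for Hoxb9 and -0.300 to 0.038 for Hoxb13, and -0.117 to 0.044 for the median of the members. The cause was not tested. Without detection calls, dim probe sets such as those of Hoxb13 and Mir10a cannot be told from background.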
